A study of Mus musculus with 4 samples.

Results

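The cyclin-dependent kinase (CDK) inhibitors are small proteins that hold back the cell division cycle, and 8 of their genes were followed here in Swiss 3T3 cells, a mouse fibroblast line. The genes are Cdkn1a, Cdkn1b, Cdkn1c, Cdkn2a, Cdkn2b, Cdkn2c, Cdkn2d and Cdkn3. They were taken by the gene name printed in the array files, which gave 13 probes of 39429 and 8 genes of 29675. The 4 groups were Lpar1+/+ fibroblasts (WT) and Lpar1-/- fibroblasts (KO), each labelled as cocultured with wild-type mast cells for 0 h or 24 h. The protein missing from KO cells, Lpar1, is a receptor for the signalling lipid lysophosphatidic acid, and the KO cells are a CRISPR/Cas9 clone grown from 1 cell. Coculture was done with 100 ng/ml SCF, the growth factor of mast cells, and the content of the 0 h samples is not stated in the labels. Each array carried RNA pooled from 3 samples, so each group is 1 array, and no difference below has a replicate, a test or a p-value.

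CDK inhibitors come in families. The CIP/KIP proteins p21 (Cdkn1a), p27 (Cdkn1b) and p57 (Cdkn1c) bind cyclin and kinase together and act on several CDKs. The INK4 proteins p16 (from Cdkn2a), p15 (Cdkn2b), p18 (Cdkn2c) and p19 (Cdkn2d) bind the kinases Cdk4 and Cdk6 and keep D-type cyclins from activating them, which leaves the retinoblastoma protein free to hold E2F factors. Cdkn2a also encodes ARF from another first exon and reading frame, a protein that binds Mdm2 and so protects p53, and p53 in turn activates Cdkn1a. Cdkn3 is different in kind: it encodes a phosphatase that removes the activating phosphate from CDKs, and it is transcribed mostly in dividing cells. In cultured fibroblasts p27 is known to gather when cells rest or touch, p15 to respond to TGF-beta, and p16 and ARF to build up with passage.

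The promoters of the genes whose signal differed most are shown with motifs of factors known for these genes, because the deposited data hold transcripts only and the sequences place them on the genome. They are the 250 bases before a transcription start in RefSeq (GRCm38.p6), 5′ to 3′ on the gene's strand. The table matched 7 of the 8 genes with 10 starts, and Cdkn1c had no entry. Cdkn1a has an upstream start (chr17:29090729-29090978, + strand) and a downstream start (chr17:29093519-29093768, + strand). Capitals mark, in the first, CATG and another CATG 6 bases after it, the cores of adjacent p53 half-sites, and in the second the GC box GGGCGG.
Cdkn1a upstream start: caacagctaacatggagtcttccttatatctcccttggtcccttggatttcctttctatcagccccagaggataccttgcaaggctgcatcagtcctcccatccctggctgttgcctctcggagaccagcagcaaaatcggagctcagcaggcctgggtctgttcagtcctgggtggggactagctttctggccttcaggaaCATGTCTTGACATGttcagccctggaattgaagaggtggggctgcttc
Cdkn1a downstream start: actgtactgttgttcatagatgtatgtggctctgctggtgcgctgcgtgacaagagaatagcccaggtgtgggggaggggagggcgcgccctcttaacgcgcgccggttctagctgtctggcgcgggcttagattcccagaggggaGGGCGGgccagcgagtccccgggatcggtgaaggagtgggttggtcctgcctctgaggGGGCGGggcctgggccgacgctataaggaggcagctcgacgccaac
The capitals in Cdkn1b (chr6:134920151-134920400, + strand) mark CCAAT, and those in Cdkn2b (chr4:89311033-89311282, - strand) the cyclic AMP response element TGACGTCA.
Cdkn1b: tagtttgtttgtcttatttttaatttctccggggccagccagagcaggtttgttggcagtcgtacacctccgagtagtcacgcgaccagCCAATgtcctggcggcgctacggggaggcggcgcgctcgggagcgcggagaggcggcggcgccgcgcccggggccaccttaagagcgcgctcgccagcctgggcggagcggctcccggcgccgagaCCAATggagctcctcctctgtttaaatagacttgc
Cdkn2b: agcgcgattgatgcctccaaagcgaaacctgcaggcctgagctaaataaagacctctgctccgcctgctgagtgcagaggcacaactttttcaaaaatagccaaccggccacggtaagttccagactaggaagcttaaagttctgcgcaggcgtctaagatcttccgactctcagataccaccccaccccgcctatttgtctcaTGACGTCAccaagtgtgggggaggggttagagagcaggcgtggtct
The upstream start of Cdkn2a, that of ARF, lies at chr4:89294620-89294869 (- strand), with the E2F motif TTTCCCGC and the GC box GGGCGG in capitals.
Cdkn2a upstream start: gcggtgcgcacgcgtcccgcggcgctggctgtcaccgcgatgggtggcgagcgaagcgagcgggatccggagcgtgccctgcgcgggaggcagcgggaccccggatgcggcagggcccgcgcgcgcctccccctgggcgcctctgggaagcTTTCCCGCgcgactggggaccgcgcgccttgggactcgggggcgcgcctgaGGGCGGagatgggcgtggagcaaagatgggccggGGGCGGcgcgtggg

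Each motif was searched on both strands. The paired p53 core was found once, 48 bases before the upstream start of Cdkn1a, and 0.49% of the 32851 promoters in the table hold it. That motif was chosen after the sequence had been read. TGACGTCA was found 46 bases before the start of Cdkn2b and in 1.55% of all promoters, and TTTCCCGC 99 bases before the upstream start of Cdkn2a and in 0.895%. GGGCGG (32.7% of all promoters) occurred 3 times before Cdkn2d and before the upstream start of Cdkn2c, 2 times before the downstream start of Cdkn1a and the upstream start of Cdkn2a, and once before Cdkn3 and Cdkn1b, where it is not capitalized. CCAAT (33.8%) occurred 3 times before Cdkn3, 2 times before Cdkn1b and once before Cdkn2d. TTTGAA (16.0%), the core of the element that represses cell cycle genes in resting cells, occurred before Cdkn3 and Cdkn2b, and in the latter it is not capitalized. The table does not tie starts to probes. A match is a description of the letters and no evidence of binding.

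The values below are normalized log2 signals, on which 0 is the 75th percentile of the array, and levels are compared only within a probe. The SE of a difference comes from the spot error of the scanner software. For the brightest probe of each CDK inhibitor gene but Cdkn1c it was 0.20 for 2 arrays and 0.29 for a difference of differences. Elsewhere it is 0.20 or 0.21 unless given, and it covers neither culture nor labelling. Spots well above background made up 62.1% to 72.7% of an array. Transcripts of mast cells were abundant on the 0 h arrays. Of a list of 23 mast cell markers, 22 passed background at 0 h and 18 at 24 h in either genotype. Their summed linear signal was 582 at 0 h and 3.40 at 24 h in WT, and 823 and 19.4 in KO. Below, 4 values without labels stand in that order. The 20 pan-leukocyte markers summed to 80.2, 9.54, 153 and 7.06, and the 21 fibroblast markers to 325, 470, 249 and 418. At 24 h the pan-leukocyte sums rest largely on 1 gene, Arhgdib. Its log2 signal was 3.15 in WT and 2.69 in KO, beside list medians of −5.53 and −5.47. Likewise the mast cell sum on KO 24 h rests largely on Il1rl1, at 3.86 beside a list median of −4.17. At 24 h the defining mast cell genes were thus low but not all at background. On bulk arrays like these, fewer cells of a type and less RNA per cell cannot be told apart. The part of the mast cell transcripts in the differences between times was not tested. The Lpar1 probe read −3.20, −3.15, −3.43 and −3.61. Where the edit lies with respect to that probe was not examined, so the probe is no check of the genotype.

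Cdkn2b and Cdkn2a varied most over the 4 arrays and Cdkn3 least. The highest and lowest arrays lay 9.13-fold apart for Cdkn2b, a range larger than that of 95.9% of genes, and 4.19-fold apart for Cdkn2a, larger than 90.1%. Among the genes measured on all arrays, Cdkn1b (2.45-fold) and Cdkn1a (2.41-fold) came next. Cdkn1c spanned 2.75-fold but is not ranked, since it did not pass background on the WT arrays. Cdkn2d (1.70-fold), Cdkn2c (1.58-fold) and Cdkn3 (1.25-fold) stayed below the median range of all genes, which was 0.86 on the log2 scale. KO 24 h was the highest array for Cdkn2a and Cdkn2b and the lowest for Cdkn1a, Cdkn1b, Cdkn2c and Cdkn2d. It thus held the highest signal of the neighbouring p16 and p15 genes and the lowest of the p21 and p27 genes.

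**Figure D1:**
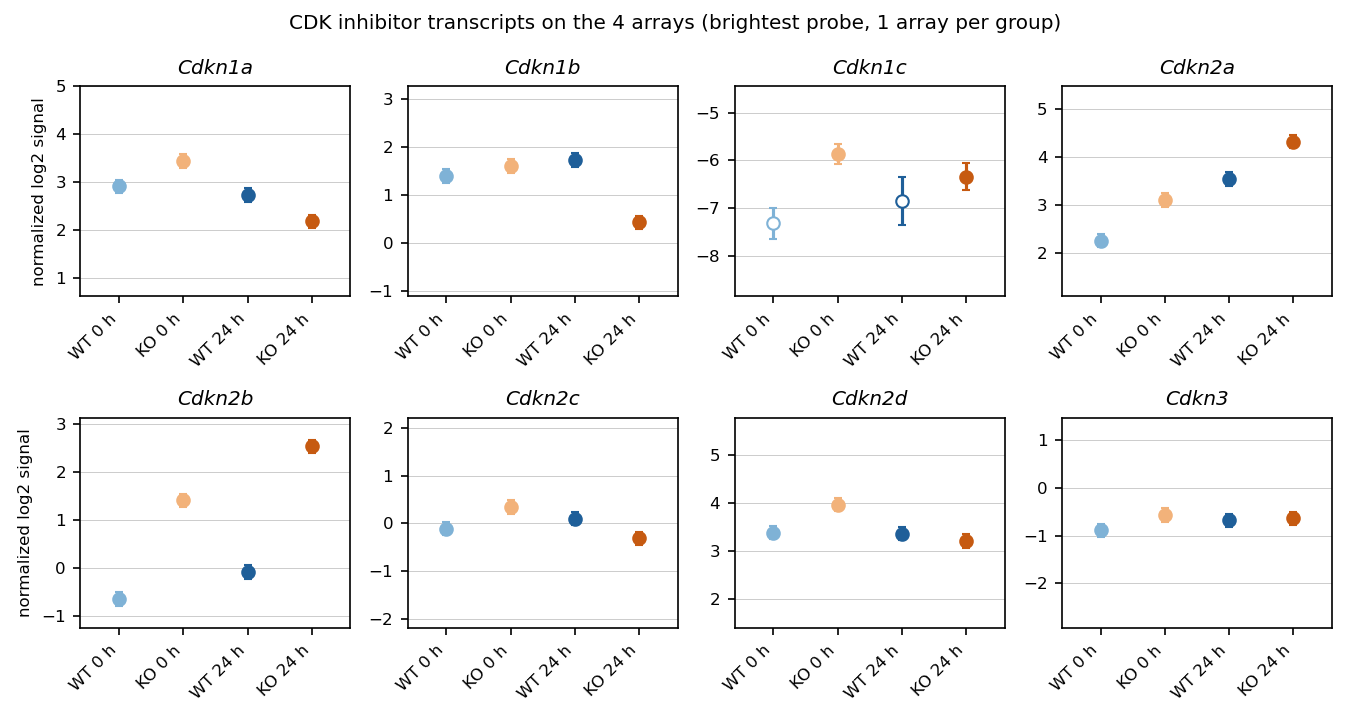
Normalized log2 signal of the brightest probe of each of the 8 genes (vertical axis, all panels spanning the same number of log2 units) on each of the 4 arrays. Points are single arrays, bars are the spot error, and open points were not well above background. Cdkn2b is higher on both KO arrays, Cdkn2a is highest on KO 24 h at 4.32, and Cdkn1a and Cdkn1b are lowest there at 2.18 and 0.43.

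Among the CIP/KIP genes, Cdkn1a (p21) was lower at 24 h than at 0 h in KO cells. Its brightest probe (chromosome 17 from 29237377 to 29237436, + strand, mm9), which lists both RefSeq transcripts, read 2.91 at 0 h and 2.73 at 24 h in WT, and 3.44 and 2.18 in KO. The order was thus KO 0 h, WT 0 h, WT 24 h, KO 24 h, and the WT arrays did not differ beyond the spot error (−0.19). This probe is printed 10 times on each array, and its spots had SDs of 0.052, 0.087, 0.059 and 0.063. In KO cells the 24 h array lay −1.27 from the 0 h array, which is 2.41-fold lower. KO differed from WT by 0.53 at 0 h and −0.55 at 24 h, so the clone read above the WT cells at the first time and below them at the second. Over the 9 settings these values ranged from 0.17 to 1.57 and from −1.27 to −0.10, and the second passed 2-fold in 2 settings, the mean of all probes and scaling to spike-ins.

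The other Cdkn1a probes gave the same direction within KO cells and parted from each other in WT. The second (from 29235299 to 29235358), listed under an Ensembl transcript, read −2.17 at 0 h and −4.58 at 24 h in WT, and −1.25 and −5.12 in KO. Both 24 h arrays lay far below both 0 h arrays at this probe, by −2.41 (SE 0.23) in WT and −3.87 (SE 0.23) in KO, in the direction of the mast cell markers. KO minus WT there was 0.92 at 0 h and −0.54 (SE 0.25) at 24 h. The third (from 29227986 to 29228045), nearest the 5′ end of the gene and listing only 1 of the 2 RefSeq transcripts, read −2.53, −1.80, −2.88 and −4.53. It differed from the others in WT, where 24 h lay 0.72 above 0 h, and its genotype difference was larger, with KO minus WT at −2.72 (SE 0.21) at 24 h and −0.35 (SE 0.21) at 0 h. In KO cells all 3 probes read lower at 24 h, by −1.27, −3.87 and −1.65 (SE 0.22).

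Cdkn1b (p27) stood out on 1 array. Its brightest probe (chromosome 6 from 134875424 to 134875483, + strand, mm9) read 1.40 at 0 h and 1.73 at 24 h in WT, and 1.61 and 0.43 in KO. The other 3 arrays lay within 0.33 of each other, and KO 24 h lay below all of them. From 0 h to 24 h the signal changed by 0.33 in WT and −1.18 in KO, and KO differed from WT by 0.21 at 0 h and −1.29 at 24 h. The dimmer probe (from 134873606 to 134873665) read −4.26, −4.07, −3.79 and −4.62, again lowest on KO 24 h, with smaller differences of 0.18 in WT and −0.83 in KO between times, each with an SE of 0.22. At 24 h its KO minus WT value was −0.54 (SE 0.23), less than 2-fold, and the mean of both probes gave −0.92. The 2-fold difference of Cdkn1b at 24 h therefore rests on the brighter probe.

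Cdkn1c (p57), an imprinted gene known mainly from embryonic tissue, was close to the floor. Its probe (chromosome 7 from 150644753 to 150644812, - strand, mm9) read −7.32 at 0 h and −6.85 at 24 h in WT, and −5.86 and −6.34 in KO, and was well above background on the KO arrays only. KO 0 h read 2.75-fold higher than WT 0 h (1.46, SE 0.39). The WT 0 h signal did not pass background, so this is no lower bound on the difference. At 24 h the WT signal did not pass either, and KO minus WT was 0.51 (SE 0.57). The KO arrays differed by −0.47 (SE 0.35) between times, and quantile normalization turned that to 0.28.

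**Figure D2:**
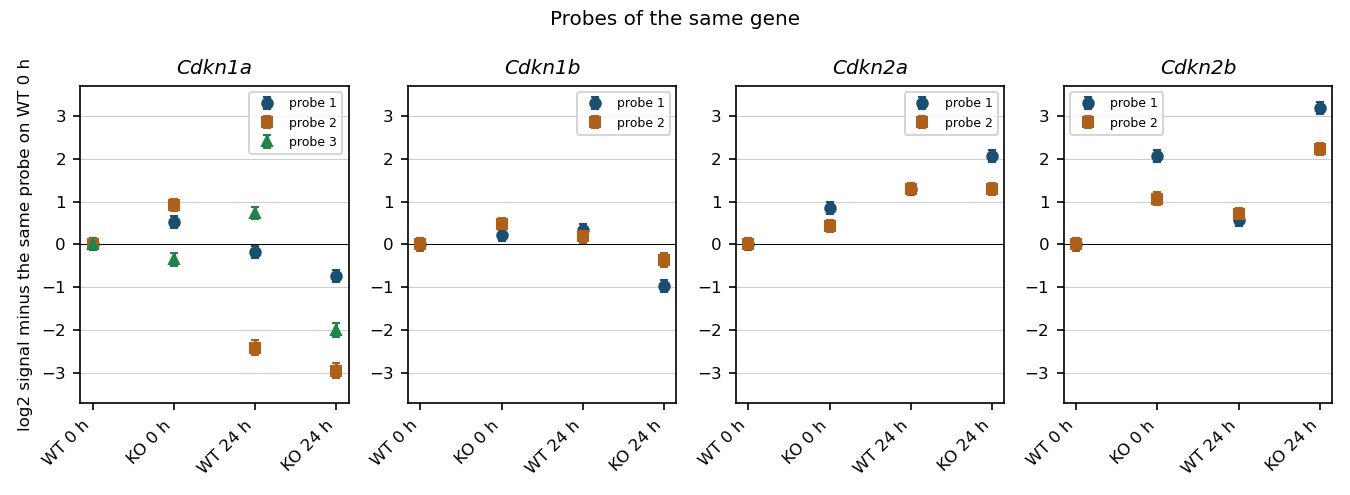
Log2 signal of each probe minus the same probe on WT 0 h (vertical axis) for the 4 genes with more than 1 probe, on the arrays along the horizontal axis. Points are single arrays and bars the spot error. The probes of Cdkn2a and Cdkn2b lie in the same order of arrays except for the nearly equal 24 h values of Cdkn2a probe 2, while the 3 probes of Cdkn1a part on WT 24 h, at −0.19, −2.41 and 0.72.

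Cdkn2b (p15), the INK4 gene known for its response to TGF-beta, separated the genotypes at both times. Its brightest probe (chromosome 4 from 88952276 to 88952335, - strand, mm9) read −0.65 at 0 h and −0.09 at 24 h in WT, and 1.41 and 2.54 in KO. Both KO arrays lay above both WT arrays. KO differed from WT by 2.07 at 0 h and 2.63 at 24 h, or 4.19-fold and 6.18-fold. Over the 9 settings tried, this one included, these values ranged from 1.57 to 3.10 and from 1.94 to 3.08. The second probe (from 88952720 to 88952779) read −4.09, −3.38, −3.02 and −1.85, with KO minus WT of 1.07 (SE 0.21) and 1.53 (SE 0.21), again at least 2-fold at each time. Between times the brightest probe changed by 0.56 in WT and 1.13 in KO, and the second by 0.71 (SE 0.22) and 1.17 (SE 0.21).

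Cdkn2a, which lies beside Cdkn2b on chromosome 4, was higher at 24 h in both genotypes. Its brightest probe (from 88920405 to 88920464, - strand, mm9) read 2.25 at 0 h and 3.54 at 24 h in WT, and 3.10 and 4.32 in KO. The probe lists the transcripts of both p16 and ARF, so these values do not say which of them differed. The change between times was 1.29 in WT and 1.22 in KO (2.44-fold and 2.33-fold), and the difference of these changes, −0.072, was within its SE. KO differed from WT by 0.85 at 0 h and 0.78 at 24 h, short of 2-fold. Over the 9 settings these values ranged from 0.49 to 1.89 and from 0.089 to 1.23. The lowest came with scaling to spike-ins, where the 24 h value was within its SE. Only scaling to the fibroblast markers took them past 2-fold. The second probe (from 88920543 to 88920602) read −2.21, −0.91, −1.78 and −0.92. It gave the change in WT again (1.30), a smaller one in KO (0.87), and KO minus WT of 0.43 at 0 h and −0.0014 at 24 h. A genotype difference at 24 h was therefore seen with only 1 of the 2 probes.

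Cdkn2c (p18) and Cdkn2d (p19) differed by less than 2-fold in every comparison of arrays. Cdkn2c (chromosome 4 from 109333508 to 109333567, - strand, mm9) read −0.11 at 0 h and 0.10 at 24 h in WT, and 0.34 and −0.31 in KO. Cdkn2d (chromosome 9 from 21092934 to 21092993, - strand, mm9) read 3.38, 3.36, 3.97 and 3.21. Both were highest on KO 0 h and lowest on KO 24 h, with changes of −0.66 and −0.76 in KO cells between these arrays. The change in KO passed 2-fold in 2 of the 9 settings for Cdkn2c (down to −1.58) and in 4 for Cdkn2d (down to −1.68). In WT cells the changes were 0.21 and −0.019, no more than about the spot error. KO differed from WT by 0.45 and 0.59 at 0 h and by −0.41 and −0.15 at 24 h, and the last is within its SE. They thus ranked the KO arrays as the CIP/KIP genes did, and not as the other INK4 genes.

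Cdkn3, the CDK phosphatase, was nearly level. Its probe (chromosome 14 from 47386895 to 47386954, + strand, mm9) read −0.89 at 0 h and −0.68 at 24 h in WT, and −0.57 and −0.64 in KO. KO differed from WT by 0.32 at 0 h and 0.036 at 24 h, and the changes between times were 0.22 in WT and −0.071 in KO. Only 6.8% of genes had a smaller range over the arrays. All the probes are placed by the files on mm9, and whether a probe lies in an exon or a UTR was not analysed here.

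The comparison of 24 h with 0 h sets the times side by side within a genotype. Mast cell transcripts also differed between these arrays, and their part was not tested. In WT cells Cdkn2a (1.29) was the only one of 7 measured genes at least 2-fold apart, against a background of 21.4% of 19198 measured genes (15.8% higher, 5.57% lower). It read 0.96, just under 2-fold, with scaling to the fibroblast markers. A gene was measured where its probe was well above background on both arrays. The median of the 7 was 0.22, against 0.28 over all genes. In KO cells all 8 were measured, and 4 were at least 2-fold apart. Cdkn2a (1.22) and Cdkn2b (1.13) were higher, Cdkn1a (−1.27) and Cdkn1b (−1.18) were lower, and the background of 17865 genes was 20.4% in either direction (9.48% higher, 10.9% lower). Their median was −0.56, against 0.23 over all genes. Among the measured mast cell markers 18 of 18 were at least 2-fold lower in each genotype (medians −8.04 in WT and −8.14 in KO), and 6 of 19 fibroblast markers were higher in WT and 11 of 19 in KO.

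The lower signals of Cdkn1a and Cdkn1b on KO 24 h passed 2-fold in all 9 settings (−2.26 to −1.27 and −2.10 to −1.0). The higher signals of Cdkn2a and Cdkn2b passed in 5 of 9, all of which keep the main scaling. The value table and both filter settings also keep the main probe, so they could hardly differ. Every setting with another scaling gave less than 2-fold. Cdkn2a and Cdkn2b read 0.93 and 0.97 with quantile normalization, and 0.87 and 0.78 with normexp. They read 0.63 and 0.53 with scaling to spike-in RNA, and 0.30 and 0.21 with scaling to the fibroblast markers. Scaling to the fibroblast markers moved the median of all genes in this comparison by −0.92, and to spike-in RNA by −0.59.

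The comparison of KO with WT asks what loss of the receptor, in this clone, goes with at each time. At 0 h all 7 measured genes read higher in KO, from 0.21 (Cdkn1b) to 2.07 (Cdkn2b), with a median of 0.53 against 0.057 over all genes. Only Cdkn2b was at least 2-fold higher, against a background of 13.4% of 20318 genes (9.34% higher, 4.07% lower). With spike-in scaling Cdkn1b (−0.15) and Cdkn3 (−0.041) turned negative. With fibroblast scaling, which moved the median of all genes by 1.04, all 7 were at least 2-fold higher. On the same arrays 8 of 22 mast cell markers and 15 of 20 pan-leukocyte markers were at least 2-fold higher in KO and 0 of either lower (medians 0.90 and 1.05), and among 20 fibroblast markers 7 were lower and 2 higher (median −0.51), the latter being Thy1 (10.74, SE 0.31) and Postn (2.71). Their part in the higher CDK inhibitor signals was not tested.

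At 24 h the genotypes differed in Cdkn2b (2.63) and, in the other direction, Cdkn1b (−1.29). These were 2 of 7 measured genes, against a background of 18.0% of 17294 genes (5.76% higher, 12.3% lower). The median of the 7 was −0.15, against −0.093 over all genes. Cdkn1b read −0.84 with scaling to the fibroblast markers. Most mast cell transcripts were low on both arrays, with 5 of 16 measured markers higher in KO and 1 lower (median 0.62). Il1rl1, the IL-33 receptor, read −2.24 on the WT array and 3.86 on the KO array, and Mitf, a transcription factor, 0.85 and 1.08. The 20 pan-leukocyte markers had 0 of 11 measured higher and 1 lower, and 1 of 18 fibroblast markers was higher and 4 lower (median −0.10). The smaller 24 h differences of Cdkn2c, Cdkn2d and Cdkn3 changed sign under scaling, to 0.036, 0.30 and −0.65.

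The changes between times differed between genotypes mostly in 1 direction. KO change minus WT change was negative for 6 of 7 genes, with a median of −0.74 against 0.032 over all genes. It passed 2-fold for Cdkn1b (−1.51) and Cdkn1a (−1.08), against a background of 18.0% of 17119 genes (4.72% higher, 13.3% lower). Cdkn2c (−0.87) and Cdkn2d (−0.74) followed. Cdkn3 (−0.29) was about at its SE of 0.29 and Cdkn2a (−0.072) within it, so the sign of these values is unsure. Cdkn2b (0.56) was the only positive value. All 5 comparisons draw on the same 4 arrays, so they are not independent of each other.

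**Figure D3:**
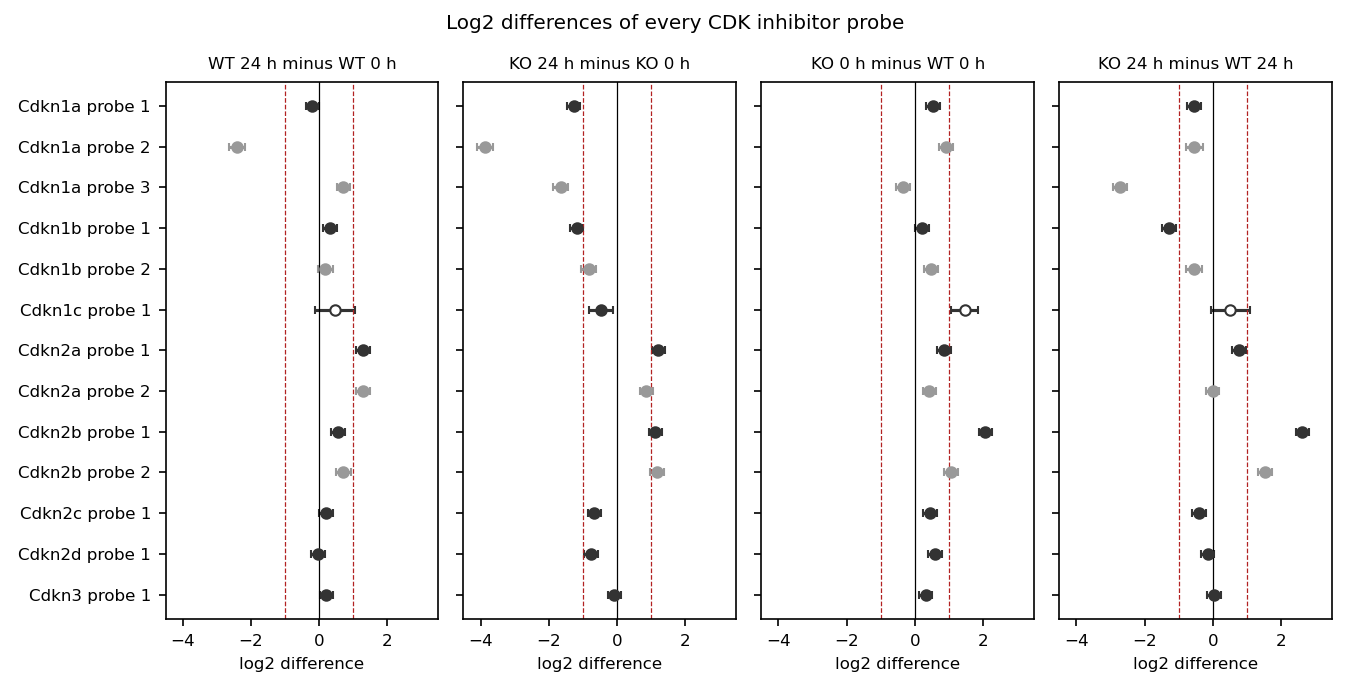
Log2 difference (horizontal axis) of each of the 13 probes in the 4 comparisons of arrays, with bars for the SE from the spot error. Dark points are the brightest probe of a gene, grey points other probes, open points differences with an array not well above background, and dashed lines mark 2-fold. The Cdkn2b probes lie beyond 2-fold in both genotype comparisons, and the Cdkn1a probes lie below it in KO 24 h minus KO 0 h.

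The kinases that the inhibitors bind, Cdk4, Cdk6 and Cdk2, were under 2-fold apart in each comparison with their brightest probes, though another Cdk4 probe gave 1.21 between times in KO. Cdk4, the main INK4 target, read 4.33 at 0 h and 4.68 at 24 h in WT, and 4.02 and 4.69 in KO. Cdk6, the other INK4 target, read −1.80, −2.01, −1.87 and −2.52, and Cdk2, the main target of p27, −1.11, −1.09, −1.33 and −1.68. Cdk6 and Cdk2 were lowest on KO 24 h. Ccnd1, which encodes cyclin D1, was lowest on KO 0 h, with 4.90, 4.90, 3.80 and 5.01, while Ccnd2 read 3.01, 3.52, 3.47 and 3.76 and Ccnd3 4.29, 4.42, 4.28 and 4.39. Of 13 measured cyclins and CDKs, 0 were 2-fold apart between times in WT, beside 21.4% of all genes. In KO cells Ccnd1 (1.22) and Ccne1 (1.17), which encodes cyclin E1, were higher at 24 h, and the list's median was 0.32. At 0 h Ccnd1 was lower in KO (−1.11), and at 24 h Ccnb2, a mitotic cyclin, was higher (1.56), with medians of −0.25 and 0.014. The shares of all genes 2-fold apart were 20.4% between times in KO, 13.4% at 0 h and 18.0% at 24 h.

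Rb1, which encodes the retinoblastoma protein downstream of these inhibitors, changed more than any other of 14 pocket protein and E2F genes. It read 1.21 at 0 h and −0.087 at 24 h in WT, and 2.29 and −1.61 in KO. The 24 h arrays lay below the 0 h arrays by −1.30 in WT and −3.91 in KO, as did the mast cell markers, and their part in this was not tested. KO differed from WT by 1.08 at 0 h and −1.52 at 24 h. Rbl2, the p130 relative of Rb1, was also lower at 24 h in KO (−1.98). The other 12 genes of the list stayed under 2-fold in the 4 comparisons of arrays, where 13.4% to 21.4% of all genes were past it.

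Of 15 genes for CDK activators and for turnover of the inhibitors, Cdc25b (1.13), a phosphatase that activates CDKs, was higher at 24 h in KO. Btrc (−1.29) and Fbxw7 (−1.24), which encode substrate receptors of ubiquitin ligases, were lower there, though their other probes gave −0.85 and −0.73. Cdc25a was higher in KO than WT at 24 h (1.11). With the brightest probes 0 were 2-fold apart in WT between times or between genotypes at 0 h, beside 21.4% and 13.4% of all genes. For KO between times that share was 20.4%, and between genotypes at 24 h 18.0%. Another probe of Dtl gave 1.05 between times in WT, and another of Rbx1 −1.25 at 0 h. Skp2, the receptor that marks p27 for destruction, read 1.13, 1.27, 0.32 and 1.14, lowest on KO 0 h, and its genotype difference at 24 h was −0.13.

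Of the genes that act upstream of the inhibitors, 6 of 19 were 2-fold lower and 0 higher in KO cells over time, beside 10.9% lower and 9.48% higher over all genes. The mast cell and pan-leukocyte markers moved in the same direction, and their part in this was not tested. The lowest were Tgfbr1 (−2.82), a TGF-beta receptor, Hes1 (−1.54, SE 0.23), a Notch target and repressor, and Tgfb1 (−1.46), the ligand. In WT, Foxo4 (1.25, SE 0.24) was higher and Jun (−1.79) and Tgfbr1 (−1.34) were lower, beside 15.8% higher and 5.57% lower over all genes. At 24 h 4 were lower in KO and 0 higher, beside 12.3% lower and 5.76% higher over all genes. Among the 4 were Foxo4 (−1.73, SE 0.28), Hes1 (−1.49, SE 0.24) and Tgfbr1 (−1.43). At 0 h Smad3 (−1.18), which carries the TGF-beta signal, was the only one 2-fold apart, beside 13.4% of all genes. Another probe of Tgfbr1 gave 0.54 at 24 h and another of Foxo4 −0.40, so these values depend on the probe. In KO cells over time Foxo4 (−1.04) and Tgfbr2 (−1.02), both counted as lower, read 0.19 and −0.62 with another probe. Smad3 read 0.99 there and 1.32 with its other probe. Trp53 read −1.73, −1.49, −2.10 and −1.60, and Mdm2, which restrains p53, read 6.07, 6.20, 6.66 and 6.89. Neither differed 2-fold in any comparison.

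Other p53 targets were lower in KO at 24 h in 8 of 19 measured genes and higher in 0, with a median of −0.44, beside 12.3% lower, 5.76% higher and a median of −0.093 over all genes. Btg2 (−2.43), an antiproliferative factor, Perp (−1.52, SE 0.36) and Sesn2 (−1.46) were the lowest. Cdkn1a read −0.55 with its brightest probe, and −0.54 and −2.72 with the others. Of the 8, Eda2r (−1.29, SE 0.36) and Rrm2b (−1.09, SE 0.28) read −0.74 and 0.37 with another probe. On KO 24 h Perp (−6.25), Eda2r (−6.19) and Rrm2b (−5.82) lay near the dimmest signal passing background (−6.69). At 0 h 1 of 20 was higher and 1 lower, with a median of 0.018, beside 9.34% higher and 4.07% lower over all genes. Over time 3 of 19 measured genes were higher and 0 lower in WT, and 2 were higher and 4 lower in KO. Over all genes 15.8% were higher and 5.57% lower in WT, and 9.48% higher and 10.9% lower in KO. Rrm2b, counted as higher in WT (1.40, SE 0.26), read −0.16 with another probe. Trp53inp1, counted as lower in KO (−1.18), read 0.42 with another probe. Pmaip1, which encodes the cell death protein Noxa, was not well above background at 24 h and so is outside the counts at 24 h and over time. Its 24 h value was set to the signal of the dimmest probe passing background on that array. On this basis it was at least 33.4-fold lower at 24 h in WT and at least 117-fold in KO. That is the direction of the mast cell markers, whose part in this was not tested. The 25 measured S-phase and mitosis genes had medians of 0.15 in WT and 0.58 in KO between times, where Mcm2 (1.47), a replication helicase subunit, was the only one 2-fold apart. Between genotypes their medians were −0.28 at 0 h, with Tyms (−1.05) lower, and 0.21 at 24 h with 0 of 25 apart. Of all genes 21.4% in WT and 20.4% in KO were 2-fold apart between times, and 13.4% at 0 h and 18.0% at 24 h between genotypes.

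**Figure D4:**
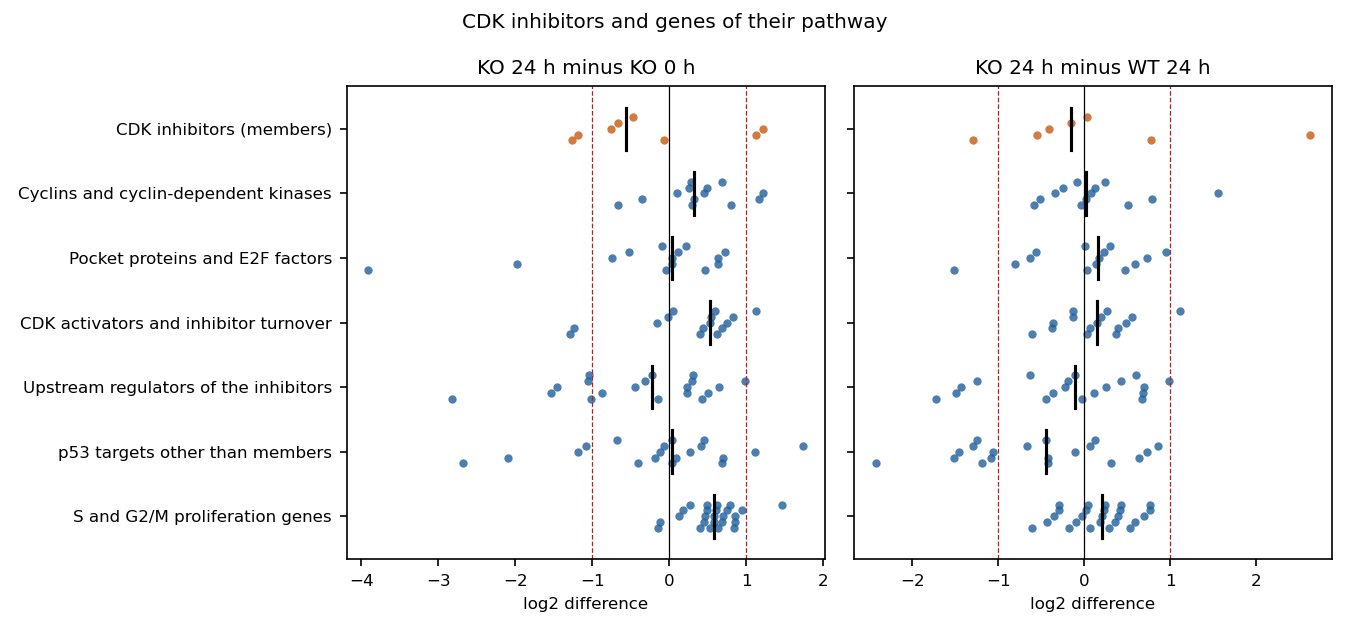
Log2 difference (horizontal axis) of each measured gene in the CDK inhibitor list and 6 lists of their pathway, for KO 24 h minus KO 0 h and KO 24 h minus WT 24 h. Points are genes on single arrays, black bars list medians and dashed lines 2-fold. Cdkn2b at 2.63 is the highest point on the right, and Rb1 at −3.91 the lowest on the left.

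Genes with the most similar pattern were sought among 13043 genes measured on all 4 arrays, by the root mean square difference of the log2 signals after centring each gene. With 4 arrays many genes follow any pattern closely, so these are descriptions. Among the nearest to Cdkn1a were Tmx4 (0.035), Csgalnact2 (0.053) and Zfp182 (0.054), and to Cdkn1b Nbr1 (0.020) and Stk40 (0.054). Among the nearest to Cdkn2a were Nxph3 (0.058) and Hid1 (0.070). Cdkn2b had the most distant neighbours, Sdc3 (0.10), Prdm1 (0.10) and Dgat2 (0.11). Cdkn2c lay near Morf4l1-ps1 (0.040) and Mtmr6 (0.045), Cdkn2d near Fuz (0.012), Adssl1 (0.033) and Ppp1r35 (0.043), and Cdkn3 near Phkb (0.013), Fbxo8 (0.018) and Gsk3b (0.022). The CDK inhibitors themselves were left out of this search.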

How the data were processed

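Single-channel (Cy3) Agilent arrays of design 026655 (mm9) measured 200 ng of labelled total RNA per array, and all 4 lay on 1 slide. The deposited scanner files hold background-corrected spot intensity, per the file headers, and Agilent Feature Extraction 12.1.1.1 is named in the submitters' processing notes. The deposited value table holds a ratio, the signal over the array's 75th percentile, and served as an alternative. Control and outlier spots were left out, the intensity was taken to log2, and the 75th percentile over 43020 spots was subtracted. Spots of a probe were averaged, and a gene took its brightest probe. Of the probes, 29110 were named through RefSeq (GRCm38.p6), and 10319 kept the file's name. A difference of at least 2-fold was counted, with no test, since each group has 1 array, and the number of arrays limits precision.

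The members and the pathway and marker lists were chosen with earlier results of these data known. Named are all members, up to 3 genes past 2-fold at each end of a list, 9 partners fixed by name (Cdk4, Cdk6, Cdk2, Ccnd1, Ccnd2, Ccnd3, Trp53, Mdm2 and Skp2), and the 3 genes most alike to each member, of which some are not reported here. Pmaip1, Mitf, Dtl, Rbx1, Tgfbr2, Eda2r, Rrm2b, Trp53inp1 and Arhgdib were named after their values were seen. The 8 alternatives were quantile normalization, normexp (offset 50) with quantile normalization, the value table, no filter or a stricter filter on dim probes, the mean of all probes, and scaling to 18 fibroblast markers or 9 spike-ins. Python 3.11.15, R 4.3.3 and limma 3.58.1 were used, and the calculation was tested on simulated data.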

Additional observations from a re-analysis of the deposited data

Results flagged for a closer look

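The genes of p21 and p27 gave differences of opposite sign in the 2 genotypes or at the 2 times, and whether these differ was not tested, since each group has 1 array. Each value is the KO change minus the WT change in log2 signal. Cdkn1a read higher in KO at 0 h and lower at 24 h with its brightest probe (−1.08, SE 0.29) and its second probe (−1.46, SE 0.32). The probe nearest its 5′ end rose from WT 0 h to WT 24 h and fell in KO (−2.37, SE 0.30). Cdkn1b did both with its brightest probe (−1.51, SE 0.29) and its dimmer probe (−1.01, SE 0.31). Part of these signs rests on values near the spot error. With the brightest Cdkn1b probe KO minus WT at 0 h was 0.21 (SE 0.20), and −0.15 with spike-in scaling. With the dimmer probe the WT change was 0.18 (SE 0.22).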

How the results depend on the processing

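Of the 40 counts of 2-fold members, 5 comparisons under 8 alternatives, 34 stayed within 1.5 times the main count and none of the alternatives reversed a called value. Equal counts did not always hold the same genes. At 24 h the mean of all probes had Cdkn1a (−1.27) in place of Cdkn1b, and scaling to the fibroblast markers had Cdkn2a (1.23) and Cdkn2b higher and 0 lower. Between times in KO, 2 higher and 2 lower became 0 higher and 3 lower with quantile normalization and with normexp, and 0 higher and 5 lower with either scaling. With no filter on dim probes, KO minus WT at 0 h had 2 genes past 2-fold in place of 1, since Cdkn1c then counts. With scaling to the fibroblast markers the counts were 7 at 0 h, 0 in WT between times and 4 for the difference of differences. With scaling to spike-ins they were 4 for KO minus WT at 24 h and 4 for the difference of differences. These scalings move all genes together, by 1.04 (fibroblast markers) and −0.36 (spike-ins) at 0 h, and by 0.45 and −0.69 at 24 h. The median over members accordingly changed sign in WT between times, from 0.22 to −0.12 (fibroblast markers) and −0.051 (spike-ins), and at 24 h from −0.15 to 0.30 (fibroblast markers). Of the values of single members and their medians, 104 moved by more than their SE and 223 did not. The value table and both filter settings keep the main probe and scaling, so a measured member could hardly move there. Their values are among the 223, and most of their counts are among the 34. The share of higher genes among all those past 2-fold depends on the setting too. At 0 h it was 69.6%, 49.5% with the stricter filter, 98.3% with fibroblast scaling and 20.4% with spike-ins, and at 24 h 31.9%, 46.5%, 68.3% and 6.18%. Between times it was 73.9% in WT, 38.6% with normexp, and 46.5% in KO, 60.8% with quantile normalization and 2.04% with fibroblast scaling. For the difference of differences it was 26.2%, and ranged from 3.93% (fibroblast scaling) to 45.9% (quantile). With normexp the genes past 2-fold fell from 21.4% to 6.17% in WT and from 20.4% to 12.3% in KO between times, from 13.4% to 6.65% at 0 h, from 18.0% to 7.85% at 24 h and from 18.0% to 6.64% for the difference of differences. The highest were 37.0%, 35.2%, 57.7%, 38.2% and 41.6% in the same order, with no filter for WT and the difference of differences, fibroblast scaling for KO and 0 h, and spike-ins for 24 h. No paired analysis was possible because each group has 1 array, and for the same reason no replicate could be left out. Signal over background limits Cdkn1c, the only member not measured on all arrays.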
